A study of Solenopsis japonica with 2 samples.

Results

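Protein kinases, lipid and inositol kinases, metabolite kinases and phosphatases of the fire ant Solenopsis japonica were described in RNA of whole adult medium workers of wild type genotype. T9 workers spent 24 h at 9 °C, and T25 workers, the control, spent the same time at 25 °C. Workers of both groups came from colonies held at 25 °C on sugar solution, mealworm and an artificial diet. A pool of ants gave 1 RNA-seq library per temperature, so no replicate shows the spread between pools, and the temperature cannot be told apart from any other difference between the 2 pools. The methods describe several biological preparations per temperature, and how these relate to the libraries is not given in the sources used here. Members were taken by name: 80 of the 4487 contigs in the deposited comparison had kinase or phosphatase in the description of their best protein match (NR database) or nucleotide match (NT database). Left out were 2 venom acid phosphatases, 1 eye-specific diacylglycerol kinase and 3 receptors for activated C kinase, 1 of which was matched to a mammal, and 74 contigs remained. By name they were 34 protein kinases, 5 regulators or partners of kinases, 3 lipid or inositol kinases, 16 metabolite kinases and 16 phosphatases.

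Kinases move a phosphate group from ATP or a similar donor onto a protein, a lipid or a small metabolite, and phosphatases take it off again. Phosphate on proteins and on inositol lipids carries signals of hormones, calcium and cyclic nucleotides inside cells, while phosphate on sugars, glycerol and nucleotides holds these compounds in the cell and feeds them into pathways. In insects the same enzymes serve flight muscle, nerve cells, the gut and the fat body, the tissue that stores fat and glycogen, and RNA of a whole ant mixes them all. In such a mixture, fewer cells of a type and less RNA per cell cannot be told apart.

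Counts are the whole-number estimates deposited per contig. They add up to 7176142 in the T9 library and 11259918 in the T25 library over the table, of which the members hold 80283 in T9 and 41889 in T25. A single contig, lower in T9 and not a member, holds 10658983 counts over both libraries, so the sums of the table mostly follow that contig. Ratios were taken after scaling by the normalised library sizes, 53237356 for T9 and 49264352 for T25. The range in parentheses after a fold is an exact 95% Clopper-Pearson interval. It covers counting error only, and it treats each count as independent, so it is too narrow where reads were copied by PCR. By its own values the table holds no contig with a fold under 2.35, so each ratio falls on a side. That follows from which contigs the table holds and does not make a side certain. The counting interval of c79361_g2_i1, for example, starts at 1.24, and no interval includes the spread between pools. Members that differed less, or had no read in a library, were not analysed here. Gene names are those of the best match in another species, mostly Solenopsis invicta and other ants.

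The members were spread over both sides, with 39 of 74 (52.7%) higher in T9 and 35 lower. Of all contigs in the comparison 54.7% were higher in T9, and over the 2553 contigs with a protein or nucleotide match 54.3% were. A log2 ratio of at least 2 or at most −2, which is 4-fold after 1 is added to each scaled count, was reached by 17 members higher and 13 members lower in T9. For the whole table these shares were 33.6% higher and 28% lower, and for contigs with a match 30% higher and 25.9% lower, so the share of members higher in T9 lies near the background and the shares past 4-fold lie below it, a difference that was not tested. The median log2 ratio was 1.84 over the members higher in T9 and −1.84 over those lower, against 2.15 and −2.18 over all contigs of the table on the same sides. Counting error alone left 24 of the 74 members with an interval above 2-fold higher and 15 with an interval beyond 2-fold lower. Of all 4487 contigs these were 1510 higher and 1108 lower, so here too the members do not exceed the background.

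By class the shares higher in T9 lay on either side of the 54.7% of the whole comparison, and no difference between classes was tested. Phosphatases had 9 of 16 contigs (56.2%) higher in T9 and summed to 34417 counts in T9 and 12562 in T25. Metabolite kinases had 10 of 16 (62.5%) higher and summed to 20977 counts in T9 and 12921 in T25. Protein kinases had 15 of 34 (44.1%) higher and 19 lower, with sums of 11194 in T9 and 10726 in T25. A single contig, the kinase PRKX described below, holds most of the protein kinase counts in T25, and without it the sums are 7785 in T9 and 3052 in T25. Of these, 2828 in T9 and 333 in T25 are those of c89078_g11_i1, a kinase by its nucleotide match but a cytochrome P450 by its protein match. Of the 35 members with a total of at least 100 counts 22 (62.9%) were higher and 13 lower in T9, and of the 39 with fewer counts 17 (43.6%) were higher and 22 lower. The whole comparison was divided by depth in the same way, with 64.2% of contigs higher in T9 at 100 counts or more and 49.9% below. Past 4-fold were 26 of the 39 members with under 100 counts and 4 of the 35 with at least 100. Of all contigs 2178 of 2980 were past 4-fold under 100 counts and 586 of 1507 at 100 or more. In both, contigs past 4-fold were more frequent at low counts. At 100 counts or more the share of members lies well below that of all contigs, a difference that was not tested. The families described below hold few contigs each, and their sides were not tested against the 54.7% of the whole comparison.

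**Figure D1:**
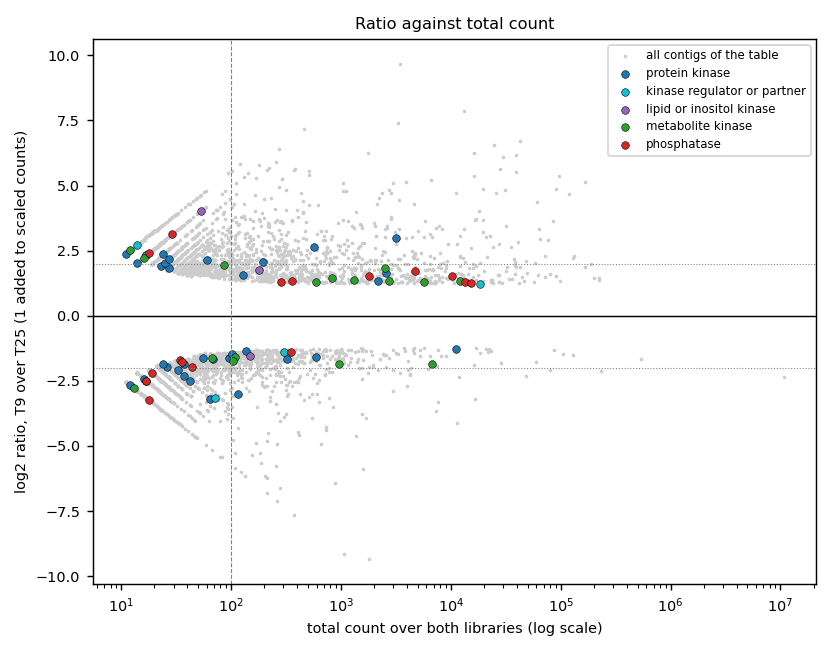
Log2 ratio of T9 over T25 (vertical axis, 1 added to scaled counts) against the total count of both libraries (horizontal axis, log scale) for all 4487 contigs (grey) and the 74 kinase and phosphatase contigs (coloured by class). The dotted lines mark 4-fold and the dashed line 100 counts: 26 of the 30 members past 4-fold lie left of the dashed line, and the region around 0 is empty because the table holds no contig with a fold under 2.35.

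Names of single contigs are not equally firm. For 39 members the word kinase or phosphatase also stands in a protein match, and for 35 it comes from the nucleotide match alone. Among the protein kinases, 8 carry a kinase domain in the deposited Pfam annotation, 2 of them higher and 6 lower in T9, while the 26 without one divide into 13 higher and 13 lower. Some pairs of contigs match the same gene of S. invicta, and these are pointed out where they occur, since they are not separate genes.

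The kinases that answer cyclic nucleotides held the largest counts among the protein kinases. Protein kinase A is switched on by cyclic AMP and protein kinase G by cyclic GMP, both made on receipt of hormones or transmitters. The catalytic subunit PRKX (c106910_g1_i1), a relative of protein kinase A, had 3409 counts in T9 and 7674 in T25, 2.43-fold (2.34 to 2.53) lower in T9. Its level per length was 21.0 FPKM in T9 and 46.8 FPKM in T25, the highest of the protein kinases in T25. A beta-like catalytic subunit of protein kinase A (c82673_g1_i1) had 13 counts in T9 and 102 in T25, 8.48-fold (4.74 to 16.5) lower. The cGMP-dependent protein kinase isozyme 1 (c85574_g1_i1) lay on the other side, with 2000 counts in T9 and 588 in T25, 3.15-fold (2.87 to 3.46) higher. All 3 carry a kinase domain, and the contigs of the cyclic AMP branch were lower and that of the cyclic GMP branch higher in the T9 library. Protein kinase C, which answers diacylglycerol and mostly calcium, was present as a delta type homolog (c31235_g1_i1) with 5 counts in T9 and 21 in T25 and as a brain isozyme (c69582_g1_i1) with 14 in T9 and 42 in T25, both lower in T9. The protein kinase C-binding protein 1 (c88500_g2_i1) had 87 counts in T9 and 215 in T25, 2.67-fold (2.07 to 3.47) lower.

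Kinases that act downstream of calcium or are related to the energy sensor AMPK were lower in T9 in 3 of 3 contigs, all with few reads. The share of all contigs that were higher in T9 was 54.7%. Calcium/calmodulin-dependent protein kinase kinase 1 (c89158_g1_i1), which activates other kinases when calcium rises, had 17 counts in T9 and 52 in T25, 3.31-fold (1.88 to 6.10) lower. The kinase BRSK2 (c88929_g1_i2), known from the polarity of nerve cells in mammals, had 2 counts in T9 and 15 in T25. Testis-specific serine/threonine-protein kinase 3 (c107620_g1_i1), named from its expression in mammals, had 6 counts in T9 and 58 in T25, 10.4-fold (4.52 to 29.6) lower, the lowest log2 ratio of a protein kinase at −3.18 with 1 added to scaled counts. Workers are females, and the name is that of the best match only.

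The NDR kinases and their activator were higher in T9 in each contig listed, beside 54.7% of all contigs. Warts is the kinase of the Hippo pathway that in Drosophila restrains tissue growth, tricorner shapes hairs and nerve cell branches there, and MOB proteins bind and activate kinases of this family. MOB kinase activator-like 2 (c65337_g1_i2) had the most counts of the 74 members, 13342 in T9 and 5247 in T25, 2.35-fold (2.28 to 2.43) higher. It also had the highest level per length, 181 FPKM in T9 and 70.3 FPKM in T25. The kinases themselves were close to the floor of detection. Warts was matched by c48923_g1_i1 with 21 counts in T9 and 3 in T25, 6.48-fold (1.93 to 33.9) higher, and by c100145_g1_i1 with 15 in T9 and 2 in T25, 6.94-fold (1.61 to 62.5) higher, and both match the same S. invicta gene. Tricorner (c62205_g1_i1) had 10 counts in T9 and 1 in T25, a ratio of 9.25 with a counting interval from 1.32 to 402. Nearly all reads of this family are those of the activator.

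Kinases of stress and RNA surveillance were also higher in T9 in 3 of 3 contigs, beside 54.7% of all contigs. Kinases of eukaryotic translation initiation factor 2-alpha slow protein synthesis under stress, and type 1 is known in mammals as the kinase that senses a lack of heme. The better counted of the eIF2-alpha kinase 1-like contigs (c77147_g2_i2), which carries a kinase domain, had 160 counts in T9 and 35 in T25, 4.23-fold (2.92 to 6.29) higher. The other (c90633_g8_i1) had 22 in T9 and 5 in T25, 4.07-fold (1.50 to 13.8) higher. SMG1 (c88472_g4_i1), a kinase of nonsense-mediated mRNA decay, had 21 counts in T9 and 4 in T25, 4.86-fold (1.64 to 19.5) higher. With 195 counts over both libraries, the first of these contigs carries most of the reads of the 3.

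The MAP kinase cascade, in which kinases activate one another in tiers, was divided. A MAP kinase kinase kinase 11-like contig (c86189_g1_i3), of the top tier, had 1586 counts in T9 and 583 in T25, 2.52-fold (2.29 to 2.77) higher. A further contig of that name (c67413_g1_i1), matched to another gene model of another ant, had 6 in T9 and 36 in T25, 6.48-fold (2.71 to 18.8) lower. Serine/threonine-protein kinase 10 (c79140_g1_i1) had 98 in T9 and 30 in T25, 3.02-fold (1.99 to 4.72) higher. By counts, the higher contigs carried far more reads than the lower one.

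Homeodomain-interacting protein kinase 2 acts on transcription factors in the nucleus, and its 4 contigs were all lower in T9. Among all contigs 54.7% were higher. The best counted (c89854_g4_i1) had 83 counts in T9 and 243 in T25, 3.16-fold (2.46 to 4.11) lower, but it shares an assembly cluster with a contig named sporulation-specific protein 15-like (c89854_g2_i14), which had 1779 in T9 and 482 in T25 and lay on the other side, and with one named GDP-fucose transporter 1 (c89854_g3_i1), which had 6 in T9 and 41 in T25. The remaining contigs match 1 and the same S. invicta gene: c78531_g1_i1 had 24 counts in T9 and 71 in T25, c63496_g3_i1 had 2 in T9 and 14 in T25, and c63496_g2_i1 had 1 in T9 and 11 in T25. These contigs of a single matched gene lay on a single side. Minibrain (c88077_g3_i1), the related DYRK kinase named from a Drosophila brain mutant, had 19 in T9 and 4 in T25, 4.40-fold (1.46 to 17.8) higher.

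Tyrosine kinases were few. Src64B (c89925_g2_i4), a cytoplasmic kinase of cell adhesion and the cytoskeleton with a tyrosine kinase domain, had 156 counts in T9 and 434 in T25, 3.01-fold (2.50 to 3.63) lower. Btk29A-like (c79361_g2_i1), also cytoplasmic, had 12 in T9 and 2 in T25, 5.55-fold (1.24 to 51.1) higher. The receptor kinase ROS (c16131_g1_i1), whose Drosophila relative sevenless specifies a photoreceptor, had 51 in T9 and 10 in T25, 4.72-fold (2.37 to 10.4) higher. The best counted of these 3 was thus lower and the others higher in T9.

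Among the remaining protein kinases, 3 contigs were higher and 6 lower in T9. SBK1 (c83970_g1_i1), a kinase with an SH3-binding domain, had 497 counts in T9 and 72 in T25, 6.39-fold (4.98 to 8.30) higher, by its nucleotide match alone. The contig named PX domain-containing protein kinase-like protein (c89078_g11_i1) had 2828 counts in T9 and 333 in T25, 7.86-fold (7.01 to 8.83) higher, the largest ratio higher in T9 among members with at least 100 counts. Its protein match and its domain are those of a cytochrome P450, an oxidising enzyme, so its place among the kinases rests on the nucleotide match only. Protein kinase 4-like (c92303_g1_i1) had 23 counts in T9 and 4 in T25. On the lower side, glycogen synthase kinase-3 beta-like (c65633_g2_i1), a kinase that in animals holds back glycogen synthase, had 28 in T9 and 74 in T25, 2.86-fold (1.83 to 4.58) lower. An ankyrin repeat and protein kinase domain-containing contig (c88249_g2_i1) had 40 in T9 and 97 in T25, 2.62-fold (1.80 to 3.89) lower. Leucine-rich repeat serine/threonine-protein kinase 1 (c71385_g2_i1) had 6 in T9 and 31 in T25, 5.58-fold (2.29 to 16.4) lower. WNK1 (c79059_g1_i1), which regulates ion transport, had 8 in T9 and 29 in T25. The last pair carries names taken from the slime mould Dictyostelium. Of these, c107867_g1_i1, called an inactive kinase, had 6 in T9 and 27 in T25 but an RNA-binding domain, and c91697_g1_i1 had 5 in T9 and 19 in T25.

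**Figure D2:**
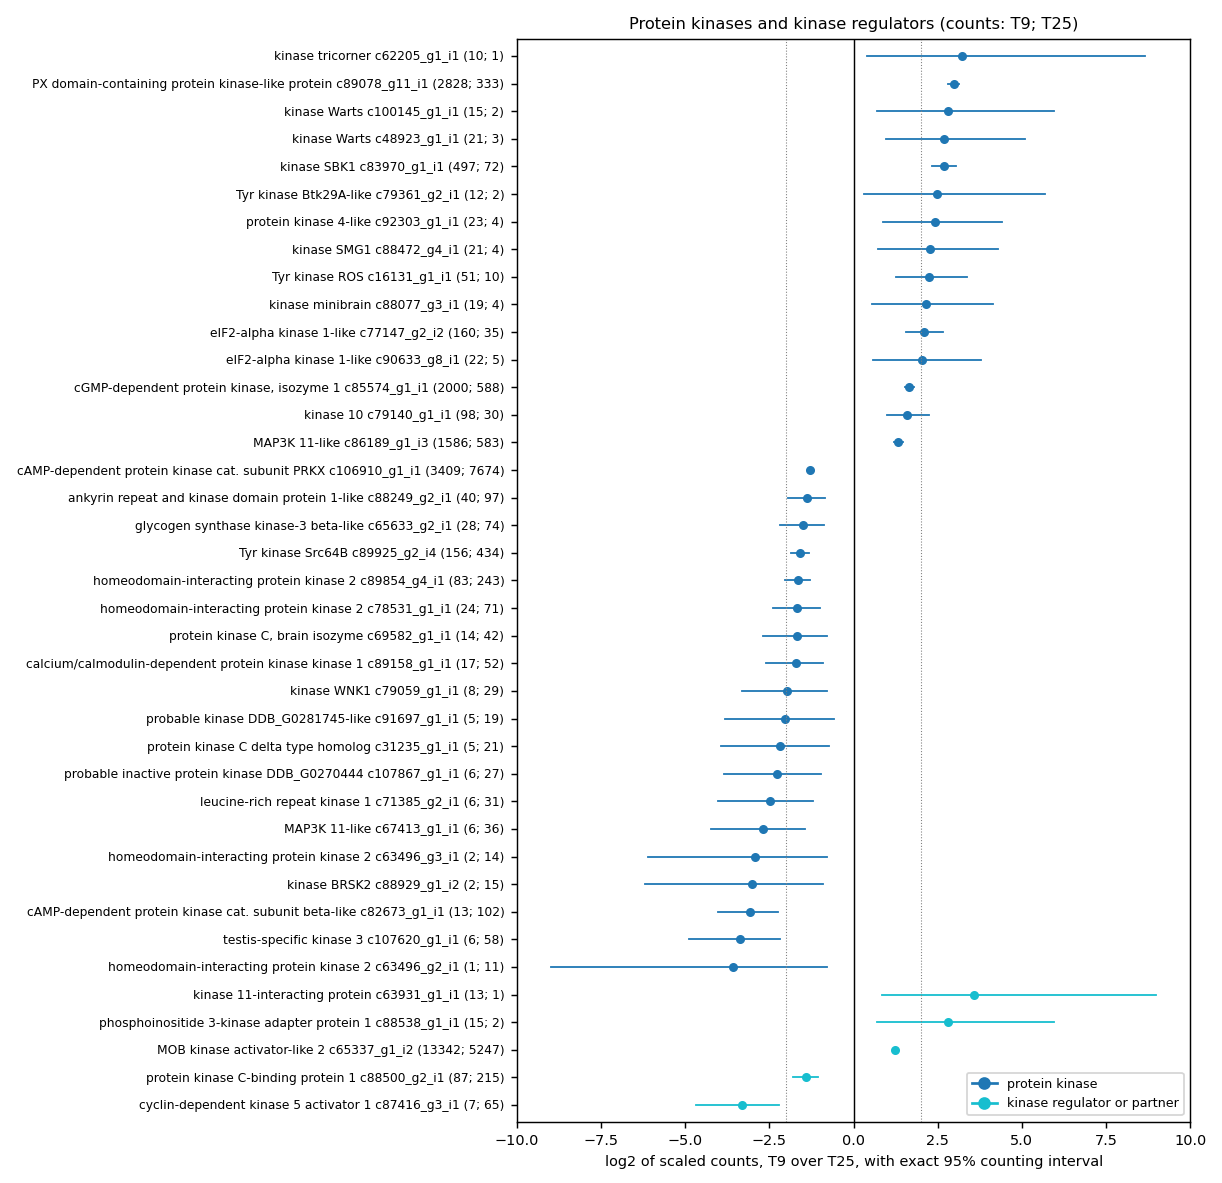
Log2 of the scaled counts of T9 over T25 (horizontal axis, no count added) for the 34 protein kinases and 5 kinase regulators or partners, 1 contig per line, with the counts of T9 and T25 in parentheses after each name. Lines are exact 95% counting intervals and dotted lines mark 4-fold: intervals are narrow for PRKX (3409 and 7674 counts) and wide where a library has 1 or 2 counts.

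Regulators and partners other than those already given had few counts. Cyclin-dependent kinase 5 activator 1 (c87416_g3_i1), which in nerve cells switches on that kinase, had 7 counts in T9 and 65 in T25, 10.0-fold (4.6 to 25.9) lower, though its protein match is a subunit of RNA polymerase II. Serine/threonine-protein kinase 11-interacting protein (c63931_g1_i1) had 13 in T9 and 1 in T25, a ratio of 12.0 with a counting interval from 1.81 to 511. The phosphoinositide 3-kinase adapter protein 1 (c88538_g1_i1), which links receptors to a lipid kinase in immune cells of mammals, had 15 in T9 and 2 in T25, 6.94-fold (1.61 to 62.5) higher. A contig with no match in the same assembly cluster (c88538_g3_i1) had 166 in T9 and 3 in T25 and lay on the same side.

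The inositol kinases were higher and the diacylglycerol kinase lower in T9. When phospholipase C splits a membrane lipid, it releases inositol trisphosphate, which opens calcium stores, and diacylglycerol, which activates protein kinase C. Inositol-trisphosphate 3-kinase A (c90297_g13_i1), which converts the trisphosphate to a tetrakisphosphate, had 51 counts in T9 and 2 in T25, 23.6-fold (6.21 to 200.1) higher, the largest plain ratio of the members. That rank rests on 2 counts in T25 and is lost with 5 added to each scaled count, which puts it at 7.64 and the PX kinase-like contig c89078_g11_i1 at 7.76. Its level was 5.32 FPKM in T9 and 0.21 FPKM in T25. Inositol polyphosphate multikinase-like (c80377_g1_i2), which builds more highly phosphorylated inositols, had 140 in T9 and 38 in T25, 3.41-fold (2.37 to 5.02) higher. Diacylglycerol kinase theta (c76555_g3_i1), which turns diacylglycerol into phosphatidic acid, had 40 in T9 and 110 in T25, 2.97-fold (2.05 to 4.38) lower. None of the 3 has a protein match, so their names rest on nucleotide matches to ants.

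Inositol phosphatases showed larger counts on the same side as the inositol kinases. Inositol monophosphatase releases free inositol from its monophosphate, the last step of inositol synthesis and of the recycling of the messenger. The inositol monophosphatase 1-like contig (c72178_g1_i2) had 7738 counts in T9 and 2496 in T25, 2.87-fold (2.74 to 3.0) higher. The inositol-phosphate phosphatase-like contig (c77081_g1_i2) had 3697 in T9 and 1050 in T25, 3.26-fold (3.04 to 3.49) higher. Both carry the inositol phosphatase domain and match different S. invicta gene models. Their levels were 48.8 FPKM and 36.2 FPKM in T9, against 15.5 FPKM and 10.2 FPKM in T25.

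Kinases of sugars and glycerol were mostly higher in T9. Sugar kinases trap sugars in the cell as phosphates, and of 7 such contigs 6 were higher and 1 lower, beside 54.7% of all contigs higher. Glycerol kinase (c82862_g1_i2), which makes the glycerol phosphate used for fat and for energy, had 8833 counts in T9 and 3237 in T25, 2.53-fold (2.43 to 2.63) higher. A contig with an FGGY carbohydrate kinase domain (c83846_g1_i2) had 4187 in T9 and 1560 in T25, 2.48-fold (2.34 to 2.63) higher. A ribokinase-like contig (c70322_g1_i2), of the family that phosphorylates ribose, had 2005 in T9 and 520 in T25, 3.57-fold (3.24 to 3.94) higher, and a further one (c38930_g1_i1) had 70 in T9 and 16 in T25, 4.05-fold (2.33 to 7.47) higher. N-acetylgalactosamine kinase (c88762_g3_i5), which salvages that amino sugar, had 2016 in T9 and 741 in T25, 2.52-fold (2.31 to 2.74) higher. Ketohexokinase-like (c81868_g1_i1), the kinase of fructose, had 618 in T9 and 207 in T25, 2.76-fold (2.36 to 3.25) higher. At the low end, ADP-dependent glucokinase (c89199_g3_i1) had 11 in T9 and 1 in T25, a ratio of 10.2 with a counting interval from 1.48 to 438, while the other contigs of its assembly cluster were lower, c89199_g1_i1 with 3 in T9 and 20 in T25 and c89199_g2_i6 with 281 in T9 and 641 in T25. The exception was ATP-dependent 6-phosphofructokinase (c84462_g1_i1), the committed step of glycolysis, with 17 in T9 and 50 in T25, 3.18-fold (1.80 to 5.88) lower. This contig, the ADP-dependent glucokinase and the ribokinase-like c38930_g1_i1 have no protein match, so their names rest on nucleotide matches.

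Gluconeogenesis makes glucose from smaller compounds, and its named enzymes lay on opposite sides. Fructose-1,6-bisphosphatase 1 (c68612_g1_i1), which runs against phosphofructokinase, had 9866 counts in T9 and 3719 in T25, 2.45-fold (2.36 to 2.55) higher, with 152 FPKM in T9 and 56.6 FPKM in T25. Phosphoenolpyruvate carboxykinase [GTP]-like (c70928_g1_i1), the entry step, had 1526 counts in T9 and 5164 in T25, 3.66-fold (3.45 to 3.87) lower. It is a carboxykinase and stands among the kinases by its name alone. Protein phosphatase 1 regulatory subunit 3C-B (c87056_g1_i1), which brings phosphatase 1 to glycogen, had 1378 in T9 and 437 in T25, 2.92-fold (2.62 to 3.26) higher, and carries a carbohydrate-binding domain. Each of these contigs has its domain or its name in a protein match of an ant.

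Contigs named for kinases that buffer ATP were lower in T9. Arginine kinase holds a store of high-energy phosphate in insect muscle and nerve, and both contigs of that name were lower: c76089_g2_i1 had 28 counts in T9 and 80 in T25, 3.09-fold (1.99 to 4.93) lower, and c81977_g3_i1 had 25 in T9 and 79 in T25, 3.41-fold (2.15 to 5.59) lower. Neither has a protein match or a domain, and the names rest on nucleotide matches to the ants Solenopsis fugax and Rogeria nevadensis. Their levels in T25 were 4.82 FPKM and 4.37 FPKM. Adenylate kinase isoenzyme 5 (c89551_g1_i5), which exchanges phosphate between adenine nucleotides, had 220 in T9 and 743 in T25, 3.65-fold (3.14 to 4.26) lower. Thymidylate kinase (c85107_g1_i1), which serves DNA synthesis, was higher, with 431 in T9 and 162 in T25, 2.46-fold (2.05 to 2.97). Phosphomevalonate kinase (c66578_g1_i1), of the pathway that leads to isoprenoids such as juvenile hormone, had 975 in T9 and 347 in T25, 2.60-fold (2.30 to 2.95) higher. NAD kinases, which make NADP, were on both sides at a handful of reads, with 14 in T9 and 2 in T25 for NAD kinase 2, mitochondrial-like (c1869_g1_i1) and 1 in T9 and 12 in T25 for an NAD kinase-like contig (c108573_g1_i1) matched to a beetle.

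**Figure D3:**
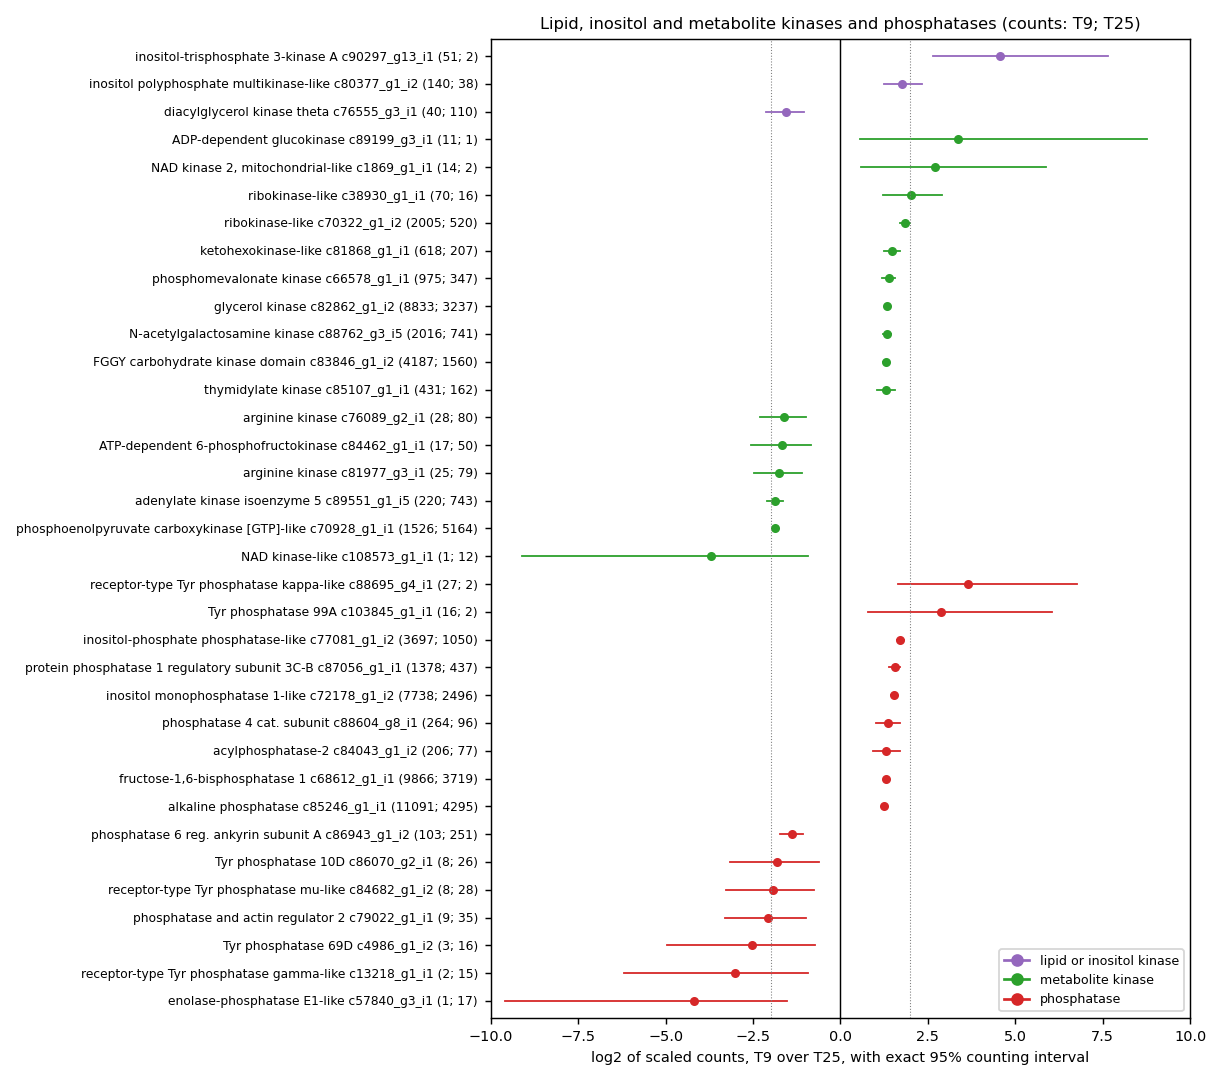
Log2 of the scaled counts of T9 over T25 (horizontal axis, no count added) for 3 lipid or inositol kinases, 16 metabolite kinases and 16 phosphatases, 1 contig per line, with the counts of T9 and T25 in parentheses after each name. Lines are exact 95% counting intervals and dotted lines mark 4-fold: the best counted contigs, alkaline phosphatase (11091 and 4295 counts) and fructose-1,6-bisphosphatase 1 (9866 and 3719), lie right of 0 and inside 4-fold.

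Phosphatases of metabolites were led by alkaline phosphatase (c85246_g1_i1), a membrane enzyme known from the insect midgut, with 11091 counts in T9 and 4295 in T25, 2.39-fold (2.31 to 2.48) higher. Acylphosphatase-2 (c84043_g1_i2), a small enzyme that splits acyl phosphates, had 206 in T9 and 77 in T25, 2.48-fold (1.90 to 3.26) higher. Enolase-phosphatase E1-like (c57840_g3_i1), of the methionine salvage pathway, had 1 count in T9 and 17 in T25, 18.4-fold (2.88 to 768) lower. It was the only phosphatase of this kind that was lower, on the fewest reads.

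Protein phosphatases were on both sides and mostly had few counts. The catalytic subunit of serine/threonine-protein phosphatase 4 (c88604_g8_i1) had 264 in T9 and 96 in T25, 2.54-fold (2.01 to 3.25) higher. A regulatory ankyrin repeat subunit of phosphatase 6 (c86943_g1_i2) had 103 in T9 and 251 in T25, 2.63-fold (2.09 to 3.35) lower, but its Pfam domain is that of an ion channel. Phosphatase and actin regulator 2 (c79022_g1_i1) had 9 in T9 and 35 in T25. The 6 protein tyrosine phosphatases had between 17 and 36 counts over both libraries, 2 higher and 4 lower in T9. Those named 69D, 10D and 99A carry the names of Drosophila receptors that guide growing axons, while the kappa-like, gamma-like and mu-like contigs do not. Receptor-type phosphatase kappa-like (c88695_g4_i1) had 27 in T9 and 2 in T25, 12.5-fold (3.14 to 108) higher, and 99A (c103845_g1_i1) had 16 in T9 and 2 in T25, 7.40-fold (1.74 to 66.4) higher. Lower in T9 were gamma-like (c13218_g1_i1) with 2 in T9 and 15 in T25, 8.10-fold (1.88 to 73.0), and 69D (c4986_g1_i2) with 3 in T9 and 16 in T25, 5.76-fold (1.65 to 30.9). The mu-like contig (c84682_g1_i2) had 8 in T9 and 28 in T25, and 10D (c86070_g2_i1) had 8 in T9 and 26 in T25. At this depth the family shows no common side.

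**Figure D4:**
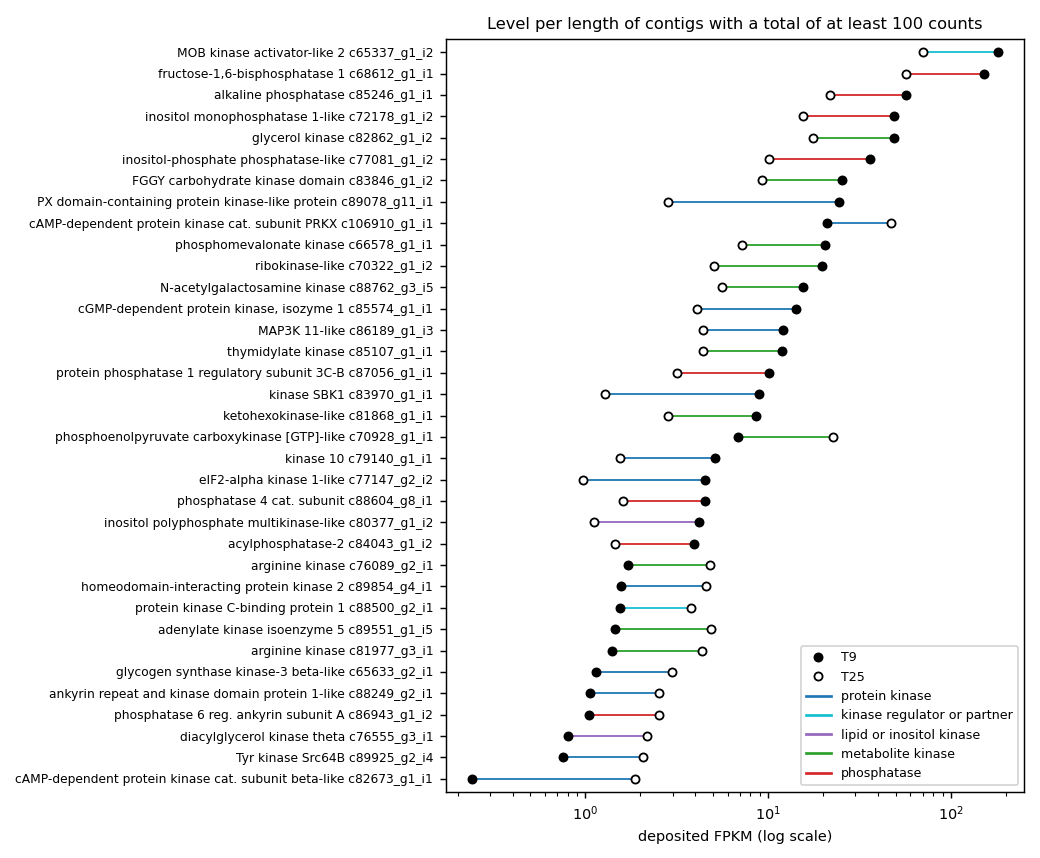
Deposited FPKM (horizontal axis, log scale) in T9 (filled circles) and T25 (open circles) of the 35 members with a total of at least 100 counts, ordered by the level in T9 and joined by a line coloured by class. MOB kinase activator-like 2 (181 and 70.3 FPKM) and fructose-1,6-bisphosphatase 1 (152 and 56.6 FPKM) stand at the top, and the beta-like catalytic subunit of protein kinase A (0.24 and 1.87 FPKM) at the bottom.

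The rest of the signalling machinery was followed with lists of words, members left out, beside the 54.7% of all contigs that were higher in T9. Of 10 inositol and calcium contigs 2 (20%) were higher and 8 lower in T9. Inositol oxygenase (c45712_g1_i1), which breaks inositol down, had 31462 counts in T9 and 7924 in T25, 3.67-fold (3.59 to 3.77) higher. Phospholipase C of the epsilon type, the enzyme that releases inositol trisphosphate, was matched by c15804_g1_i1 with 6816 in T9 and 16296 in T25, 2.58-fold (2.51 to 2.66) lower, and by c90015_g2_i1 with 1415 in T9 and 3801 in T25, 2.90-fold (2.73 to 3.09) lower. Of 24 cyclic nucleotide and G protein contigs, a list that shares phospholipase C with the first, 7 (29.2%) were higher and 17 lower. Its best counted contigs are those of phospholipase C just given and c40818_g1_i2, also named for that enzyme, with 1445 in T9 and 3162 in T25. The list is thus not one of cyclic nucleotide and G protein genes alone. Of 12 contigs found by the insulin and TOR words 9 (75%) were higher and 3 lower. The best counted of them is named slp1-like (c87961_g1_i2), a fork head factor that in Drosophila patterns the embryo and is no part of insulin signalling, with 1894 in T9 and 410 in T25. Another is the transcription factor FOXO (c89945_g4_i1), which insulin signalling holds out of the nucleus, with 198 in T9 and 58 in T25, 3.16-fold (2.35 to 4.31) higher. The contig matched to the acid labile subunit (c86782_g1_i1), which in mammals carries insulin-like growth factors in blood, had 1868 in T9 and 159 in T25, 10.9-fold (9.24 to 12.9) higher. Cell cycle contigs were 3 higher and 3 lower. The words for adaptors found 1 contig higher and 5 lower, but the best counted carry other names in their protein match, such as a mucin-19-like protein (c84668_g1_i4) with 298 in T9 and 781 in T25, so the list is not one of adaptors alone. The lists were drawn by words and were not chosen independently of these libraries.

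Markers of tissues in the whole ant are given beside the same 54.7%. The fat body list was drawn by the words vitellogenin, fatty acid synthase, hexamerin and arylphorin. Its contigs were higher in T9 in 26 of 28 cases (92.9%), with sums of 251511 counts in T9 and 58249 in T25. The best counted of them (c89203_g1_i4), with 68075 in T9 and 22099 in T25, has an uncharacterized protein as its protein match. Much of the rest is from fatty acid synthases, c90821_g8_i3 with 60617 in T9 and 11385 in T25 and c21111_g1_i1 with 58760 and 5351. The share thus mostly follows these contigs and not the storage proteins. The 2 fat body contigs lower in T9 reached a log2 ratio of −4.46. Among the paper's down-regulated genes they are the storage proteins named hexamerin-like and arylphorin subunit alpha-like. Gut contigs were higher in 15 of 21 cases (71.4%), with sums of 218625 in T9 and 7956 in T25. Muscle contigs were lower in 14 of 17 cases, with sums of 48797 in T9 and 95549 in T25, of which troponin T (c101719_g1_i1) alone holds 29437 in T9 and 75741 in T25. The troponin C contigs were divided. The one higher in T9 (c70478_g1_i1) had 12672 in T9 and 3328 in T25, and the lower one (c68674_g2_i1) had 6301 in T9 and 15280 in T25. Neuronal contigs were lower in 21 of 26 cases, while their sums, 34929 in T9 and 8150 in T25, went the other way and are mostly those of synaptic vesicle glycoproteins, c63559_g1_i3 with 30583 in T9 and 4519 in T25 and c63358_g1_i1 with 1884 in T9 and 209 in T25. Eye contigs were lower in 2 of 2, with sums of 12 in T9 and 76 in T25. Contigs found by the words testis or sperm, the testis-specific kinase included, were higher in 4 of 6, with sums of 384 in T9 and 374 in T25. Among the higher ones is a spermine oxidase-like contig (c84598_g2_i1) with 66 in T9 and 20 in T25, which is named for spermine and is no marker of testis or sperm. No marker contig of the table was at 0 in a library, since each contig listed has a count in both. The part of such tissue differences in the higher metabolite enzymes, the lower contigs named arginine kinase and the lower kinases known from nerve cells was not tested.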

How the data were processed

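Libraries of whole S. japonica workers, 1 at 9 °C and 1 at 25 °C, were compared from the authors' deposited table. Per the labels and the study's methods, the authors trimmed the reads with Trimmomatic 0.38, checked them with FastQC 0.11.7, assembled them de novo, aligned them with Bowtie 1.1.2 and obtained the deposited expected counts with RSEM. The counts are whole estimated counts without normalization, and the authors removed contigs that had 0 in either one. FPKM, as deposited, is scaled for contig length and depth. The deposited log2 values are log2(CPM + 1) with a normalised library size, which was recovered from them. The authors' columns of fold change and raw and adjusted p-values compare the same libraries and were not used.

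Ratios with exact Clopper-Pearson 95% intervals came from scipy 1.17.1, run under Python 3.11.15 beside pandas 2.3.3 and numpy 2.4.6. Plots used matplotlib 3.10.9. Log2 ratios had 1 added to scaled counts. With 1 library per temperature no test was made. Receptors for activated protein kinase C were dropped as the same protein under another spelling. The words cAMP, cGMP and G-protein were sought as whole words, and sperm not within spermidine, which left spermine in. Contigs were to be named if they had at least 100 counts in all or passed 4-fold, and the others were named to complete a family, after their values were seen. The members and lists were chosen with earlier results of these data known. The interval was tested on simulated data. Alternatives covered scaling, pseudocount, threshold, depth, match and counting unit. The result of 1 signalling list is not reported here.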

Additional observations from a re-analysis of the deposited data

How the results depend on the processing

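The 39 members higher and 35 lower in T9 kept their sides when libraries were scaled by clean reads, when FPKM ratios were used, with 0.5 or 5 added to scaled counts and when contigs of an assembly gene were summed. A number added to both scaled counts cannot change a side, and the sums per assembly gene gave the same values as the contigs. These settings were therefore no test of the sides. Scaling by clean reads shifts all log2 ratios by 0.13 and FPKM by 0.131. Each moved 10 of 61 named contigs beyond their counting interval, and no side could turn, since the smallest fold is 2.35. With 5 added, 4 members higher and 3 lower were past 4-fold, against 17 and 13. At 3-fold 24 were higher and 28 lower, and at 8-fold 2 were higher and 3 lower. The shares over all contigs were not taken at these thresholds or with 5 added. With a total of at least 100 counts, 22 were higher and 13 lower, 3 and 1 of them past 4-fold, and the median log2 ratio changed sign for protein kinases, 0.024 against -1.424, and for regulators, -0.086 against 1.234. With an ant protein match only, 22 were higher and 19 lower, 5 and 8 past 4-fold, and the median of regulators was -1.406. By the NR description alone 17 were higher and 14 lower, 2 and 6 past 4-fold. With the word also in a protein match, an alternative chosen after seeing the data, 20 were higher and 19 lower, 3 and 8 past 4-fold, and the phosphatase median was -0.066 against 1.276. Lipid or inositol kinases had no contig left under the last 3 of these. Fewer contigs enter each of them by construction, and because the table holds nothing near 0, the median of a mixed class jumps from side to side.

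No paired analysis was possible because each temperature has 1 library, so leaving out a replicate was not possible either. Centring on unchanged contigs was not run, since the table holds none. Depth limits the 18 members with 3 or fewer counts in the lower library, whose ratios have counting intervals too wide for a size.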
